A study of Homo sapiens with 18 samples.

Results

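The comparison described here is that of 22Rv1 cells labelled as carrying an shRNA against ONECUT2 with untreated 22Rv1 cells, chosen by array title and treatment label. It takes 6 of the 18 arrays of the series, 3 per group. 22Rv1 is an established human prostate carcinoma line that responds to androgen. RNA was measured on a 3′ expression array that reads most genes with 1 or more probe sets, and every value below is a log2 level after GCRMA, a background correction and normalization that uses probe sequence. The untreated cells carry the treatment label Vehicle, and no label gives them a virus or puromycin. The cells labelled shONECUT2, titled sh43, were transduced with a pLKO lentivirus in 5 µg/mL polybrene and kept as a stable line under 5 µg/mL puromycin. The remaining 22Rv1 groups, used here for the spread and as points of reference, were a line with a non-target shRNA labelled scramble, titled sh202 and selected the same way, and a line with an ONECUT2 overexpression construct, with 3 arrays each. All cells were grown in RPMI-1640 with 10% serum. The protocol names a pair of ONECUT2 shRNA clones, whereas the 3 arrays share 1 clone number in their titles, so 1 hairpin in 1 selected line stands for the knockdown. The labels do not state whether replicates were grown separately, and p-values here measure only the spread between these arrays.

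ONECUT2 is a transcription factor of the Cut homeobox family, which pairs a Cut domain with a homeodomain and takes part in liver, pancreas and neuronal development. In prostate cancer it is known as a repressor of androgen receptor signalling and as a driver of neuroendocrine features. An shRNA is processed by the RNA interference machinery into a small RNA that guides cleavage of the matching transcript, so a lower ONECUT2 level would be the direct readout of the knockdown.

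ONECUT2 RNA was not lower in the arrays labelled ONECUT2 shRNA. The probe set 239911_at, which gave the gene its level, read 8.23, 8.15 and 8.25 in control, 8.46, 9.0 and 9.12 in the arrays labelled ONECUT2 shRNA, and 6.63, 6.71 and 7.08 in the scramble arrays. All 3 shRNA arrays lay above the control arrays, and the scramble arrays lay below them. The difference from control was 0.65 ± 0.16 (SE) on the log2 scale (limma, Benjamini-Hochberg adjusted p = 0.0142 over all 23303 probe sets fitted). Without shRNA replicate 2 the difference was 0.58 with an adjusted p of 0.0685, and without shRNA replicate 3 it was 0.52 with an adjusted p of 0.0593. A second probe set, 230271_at, read 7.22, 7.23 and 7.15 in control, 8.29, 8.69 and 8.73 in the shRNA arrays, and 6.58, 6.71 and 6.51 in scramble. It was higher than control by 1.37 ± 0.13 (limma adjusted p = 1.91e-05), and here too the groups did not overlap. The arrays labelled as ONECUT2 overexpression read 8.28, 8.23 and 8.57 on 230271_at and 8.59, 8.81 and 8.85 on 239911_at, values that overlap those of the arrays labelled ONECUT2 shRNA. On 207676_at these groups did not overlap, with 4.78, 4.14 and 4.21 in overexpression and 2.94, 3.06 and 2.94 in shRNA. Nor did they on 233446_at, with 4.70, 4.35 and 4.33 in overexpression and 5.47, 5.22 and 5.63 in shRNA.

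The other 3 ONECUT2 probe sets gave no call between the shRNA and control arrays. Probe set 233446_at read 5.04, 5.48 and 5.75 in control and 5.47, 5.22 and 5.63 in the shRNA arrays, a difference of 0.01 ± 0.22 (limma adjusted p = 0.977). In the scramble arrays it read 3.43, 4.22 and 3.46, lower than control by a log2 difference of -1.72 ± 0.22 (limma adjusted p = 4.15e-05). Probe set 207676_at differed by -0.27 ± 0.16 and 233441_at by 0.02 ± 0.10, at levels near the floor of the array. Of the 5 probe sets, then, 2 were higher in the shRNA arrays, 0 were called lower by limma, and 0 reached an unadjusted p under 0.05 in the lower direction. The scramble arrays were lower than control on 4 of the 5 probe sets, by log2 differences of -0.43 (207676_at), -0.60 (230271_at), -1.72 (233446_at) and -1.41 (239911_at), with limma adjusted p-values of 0.045, 0.00225, 4.15e-05 and 1.41e-05. The 207676_at values were near the floor in both groups, at 3.05, 3.44 and 3.25 in control and 2.64, 2.86 and 2.94 in scramble. ONECUT2 RNA thus goes against the label of the shRNA arrays and does not bear out that of the scramble arrays. The use of the scramble arrays as a reference carries the same doubt. Both groups are named below by their labels, and each direction is that of the labelled arrays and cannot be read as the direction of ONECUT2 loss. Protein was not analysed here.

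**Figure D1:**
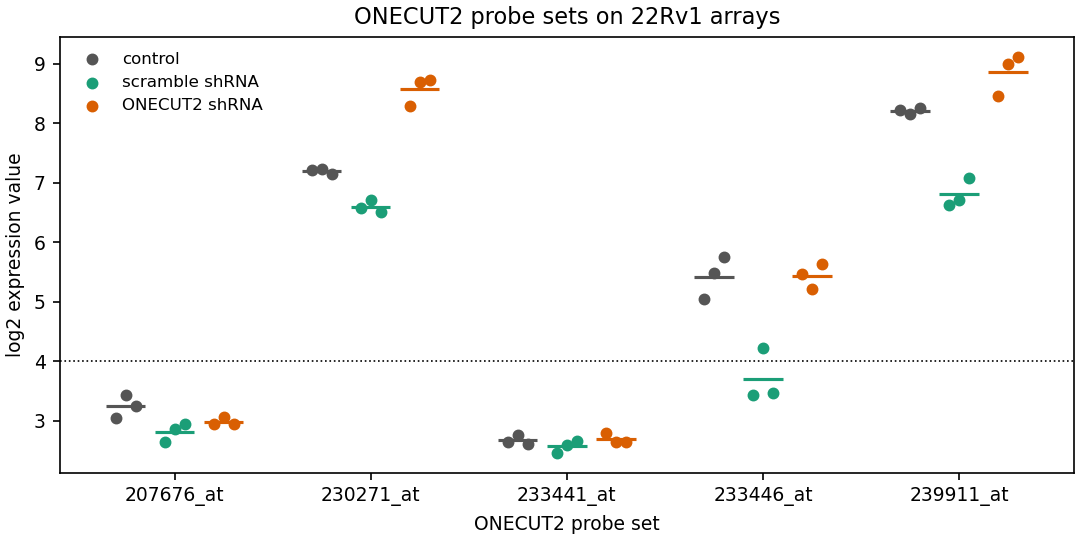
Log2 GCRMA level of the 5 ONECUT2 probe sets on each 22Rv1 array, for control, scramble and ONECUT2 shRNA, with 1 point per array, a bar at each group mean and a dotted line at the level of 4. In 239911_at and 230271_at the arrays labelled ONECUT2 shRNA sit above the control arrays and the scramble arrays sit below them.

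The 22Rv1 arrays were even in scale, with array medians between 3.27 and 3.31. Arrays of a group correlated at 0.9973 to 0.9976 in control and 0.9963 to 0.9971 in shRNA. Between control and shRNA arrays the correlation over all probe sets was 0.9937 to 0.9958, and between control and scramble arrays it was 0.9892 to 0.9915. The difference between the 3′ and 5′ probe sets of beta-actin, a sign of RNA integrity, was 4.27 ± 0.04 (SD, n = 3) in the shRNA arrays and 4.11 ± 0.41 (SD, n = 3) in control, a gap of 0.16 (two-sided exact permutation p = 0.5, where the smallest possible with 3 against 3 is 0.1). In scramble it was 3.88 ± 0.28 (SD, n = 3), and on the overexpression arrays, which enter the estimate of spread, it ran from 7.28 to 8.65. The 5′ ribosomal RNA probe set read 8.93 ± 0.19 (SD, n = 3) in control, 9.17 ± 0.43 in the shRNA arrays and 7.47 ± 0.19 in scramble. The part of either measure in the results was not tested.

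Of 19775 genes with a probe set of their own, 11705 passed a level of 4 on at least 3 of the 12 22Rv1 arrays and were tested. Between shRNA and control arrays, 2122 genes were called at a limma adjusted p under 0.05, 18.1% of those tested. Of these, 1175 (10%) were higher and 947 (8.09%) were lower in the shRNA arrays. Most differences were small, with a median size of 0.46 log2 units among called genes, and 119 genes (1.02%) were called and at least 2-fold apart, 63 higher (0.538%) and 56 lower (0.478%). In 4167 genes (35.6%) all 3 shRNA arrays lay on 1 side of all 3 control arrays. The scramble arrays stood further from control, with 4855 genes called (41.5%) and 552 (4.72%) called at 2-fold or more. Between shRNA and scramble arrays 5662 genes were called (48.4%). The 3 comparisons share arrays, and each is given for its own values only.

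These counts rest on the spread among the 12 22Rv1 arrays. With the 6 control and shRNA arrays alone in the fit, 1995 genes were called between these groups. When the spread was taken from all 18 arrays, LNCaP included, the calls between shRNA and control fell to 542, and 53 of the 101 called genes named by rule lost their call. Those named below included TFPI, KLK3, STK39, SCD, NEFL, MAP2, SEMA3C, EFNB2, SPINK1, MUC13, ADM, BAMBI, CENPF, DLGAP5, MKI67, IFIH1, IFITM3 and DUSP6. The others named below were ETV1, AKR1C2, AKR1C3, GCLM, LGR5, AGO3, TNRC6B, XPO5, KRT8, CLDN4, ACTA2, CHGA, CHGB, PEG10, YWHAZ, RET, RARB and CYP26B1. Leaving out a single control or shRNA array also ended the call of KRT8, CLDN4, SPINK1, MUC13, CHGA, CHGB, PEG10, DLGAP5, MKI67 and XPO5. It did the same for RET, RARB and YWHAZ. Another rule for choosing the probe set ended the call of E2F2, CDH6, GJC1, AKR1C2, MUC13, TNRC6B, CHGA, PEG10, SMAD4, CYP26B1 and YWHAZ. With the mean of a gene's probe sets the log2 difference was 0.26 in E2F2, 0.07 in GJC1, 0.33 in MUC13 and 0.12 in TNRC6B, and with the probe set of largest variance it was 0.41 in CDH6 and 0.38 in AKR1C2. The count was 1195 without shRNA replicate 2, 1318 without control replicate 1 and 1364 without control replicate 3. Centring each array on its median left 2144 calls but lowered the share of them that were higher from 55.4% to 44.5%.

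Among the genes that were higher in the shRNA arrays, SUSD2, which encodes a sushi-domain membrane protein, differed most from control. It read 6.12, 6.03 and 6.25 in control and 8.81, 8.96 and 9.13 in the shRNA arrays, a 7.14-fold difference (log2 2.84 ± 0.13, limma adjusted p = 6.89e-09). The scramble arrays read 8.04, 7.78 and 8.12, so SUSD2 was above control in both lines with a hairpin.

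ATP11A, a phospholipid flippase, read 2.08, 2.81 and 2.87 in control and 5.15, 5.13 and 5.10 in the shRNA arrays. All control arrays were under the level of 4 used as the detection limit, so the shRNA arrays were at least 2.19-fold higher, the bound being taken from that limit. MAP3K8, a kinase that activates MEK, read 3.86, 3.05 and 3.19 in control and 5.64, 5.82 and 6.18 in the shRNA arrays, at least 3.68-fold higher. CLSTN2, a calsyntenin of the synaptic membrane, went from 3.35, 3.19 and 3.18 to 5.46, 5.64 and 5.72, at least 3.04-fold higher. It was under the limit on every control, scramble and overexpression array, so it passed the level filter only through the shRNA arrays. The scramble arrays were also all under the limit in ATP11A and CLSTN2, and in MAP3K8 they read 3.57, 3.41 and 4.04, so no difference from control is given for them.

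LHFPL6, a tetraspan membrane protein, read 7.09, 6.38 and 7.03 in control, 9.45, 9.24 and 9.38 in the shRNA arrays and 5.43, 5.67 and 6.05 in scramble. It was 5.76-fold higher than control (log2 2.52 ± 0.19), while the scramble arrays were lower than control by a log2 difference of -1.11. AHNAK, a very large scaffold protein of the cell periphery, rose 3.77-fold, from 5.78, 5.70 and 5.86 to 7.54, 7.80 and 7.75. KLF12, a Krüppel-like transcriptional repressor, rose 3.75-fold, from 6.02, 5.99 and 5.27 to 7.37, 7.84 and 7.81. B3GNT2, which extends poly-N-acetyllactosamine chains on glycoproteins, rose 3.18-fold, from 10.04, 9.76 and 10.07 to 11.54, 11.67 and 11.67. In KLF12 and B3GNT2 the scramble arrays were within 0.10 log2 units of control on average, at -0.07 and -0.03.

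The remaining large rises were in ACE, NKAIN1, PDP1, PCDH19 and BEND7. ACE, the angiotensin-converting enzyme, was 3.49-fold higher in the shRNA arrays, and it was also higher in scramble by 1.33 log2 units. PDP1, the phosphatase that activates pyruvate dehydrogenase, read 10.31, 10.16 and 10.44 in control and 11.87, 12.17 and 11.98 in the shRNA arrays, 3.27-fold higher. BEND7, a BEN-domain protein, was 2.90-fold higher. The protocadherin PCDH19 read 4.04, 4.91 and 4.93 in control and 5.12, 6.75 and 6.67 in the shRNA arrays, so replicate 1 was the lowest of each group. Its log2 difference of 1.56 ± 0.36 lost its call without shRNA replicate 2 (1.27, adjusted p = 0.0524) or without control replicate 1 (1.26, adjusted p = 0.0503).

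The largest fall was in GJB2, a connexin that forms gap junction channels between epithelial cells. It read 10.11, 9.77 and 10.01 in control and 6.17, 5.92 and 5.80 in the shRNA arrays, a 16-fold difference (log2 -4.00 ± 0.11, limma adjusted p = 2.15e-11). The scramble arrays read 11.34, 11.15 and 11.42, higher than control by 1.34. GJB6, a connexin whose gene is the direct protein-coding neighbour of GJB2 on chromosome 13, read 4.03, 4.08 and 4.26 in control and 2.10, 1.82 and 2.10 in the shRNA arrays. It was at least 1.09-fold lower, since the shRNA arrays were all under the detection limit, and the scramble arrays read higher at 4.80, 4.91 and 5.59.

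CLDN11, a claudin of tight junctions, fell 6.05-fold, from 8.97, 9.14 and 9.13 to 6.95, 6.57 and 5.93. TFPI, the inhibitor of the tissue factor pathway of coagulation, fell 5.94-fold, from 7.98, 7.91 and 7.46 to 4.94, 5.76 and 4.94. Its call was lost in the 18-array fit (limma adjusted p = 0.209). TFPI was lower than control in scramble as well, at 6.9, 6.93 and 6.8, a log2 difference of -0.91. PRR16 fell 3.37-fold, from 8.96, 8.75 and 8.83 to 7.21, 7.19 and 6.89, and was also lower in scramble, at 7.62, 7.39 and 7.82. LXN, an inhibitor of carboxypeptidases, fell 3.23-fold, from 8.47, 8.51 and 8.55 to 6.81, 6.86 and 6.78, whereas the scramble arrays read 9.66, 10.10 and 9.80. NMB, the neuropeptide neuromedin B, fell 3.08-fold, from 7.86, 7.79 and 7.69 to 6.28, 6.11 and 6.08, with scramble at -0.13 from control. Across the 24 leading genes, the 10 further probe sets that read 7 of them all had the direction of the gene's own probe set. Of these 10, 7 were called. Those without a call were 225725_at (-0.23) and 227221_at (-0.33) of ZMAT3 and 231629_x_at (-0.18) of KLK3.

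**Figure D2:**
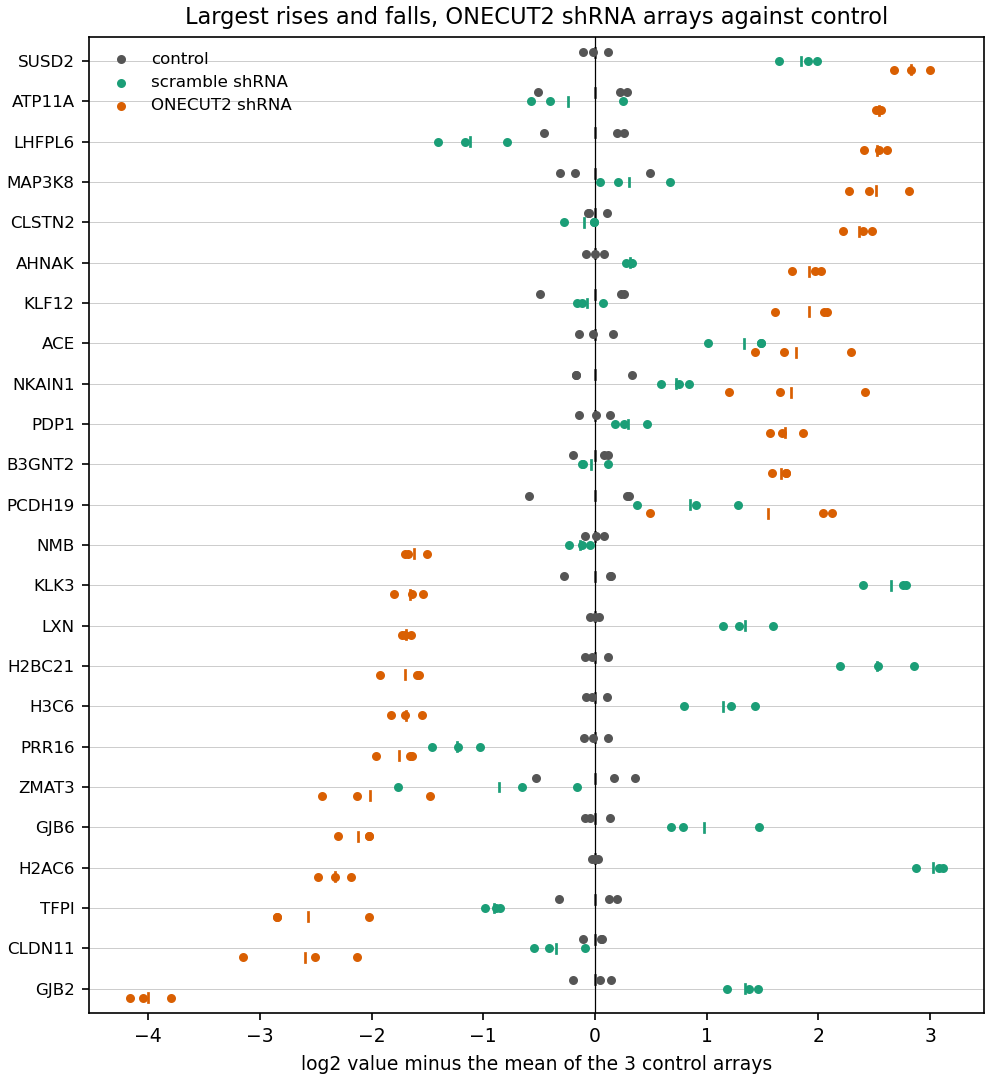
Log2 level of the 24 leading genes on each array minus the mean of the 3 control arrays, with 1 point per array for control, scramble and ONECUT2 shRNA and a bar at each group mean. The GJB2 bar of the arrays labelled ONECUT2 shRNA lies at -4.00 and that of scramble at 1.34, on opposite sides of control.

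The gene group with the largest share of members called was that of cholesterol and fatty acid synthesis. Cells make cholesterol from acetyl-CoA through the mevalonate pathway, and the transcription factors SREBF1 and SREBF2, released from the endoplasmic reticulum when sterol is low, raise the genes of both pathways. Their target promoters carry sterol response elements and, close by, CCAAT boxes bound by NF-Y. The promoters of 5 genes of the group are shown for these letters, since the members moved together; they are RefSeq sequences (GRCh38.p14), given 5′ to 3′ on the gene's strand, 140 bases each within the 250 bases before the annotated start. Capitals mark CCAAT on either strand (printed as CCAAT or ATTGG) and, in SREBF2, the letters TCACNCCAC of a sterol response element.
SCD, chr10:100346994-100347133, plus strand: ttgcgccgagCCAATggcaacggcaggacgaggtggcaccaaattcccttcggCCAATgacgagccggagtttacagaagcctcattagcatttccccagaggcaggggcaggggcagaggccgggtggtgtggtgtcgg
DHCR7, chr11:71448394-71448533, minus strand: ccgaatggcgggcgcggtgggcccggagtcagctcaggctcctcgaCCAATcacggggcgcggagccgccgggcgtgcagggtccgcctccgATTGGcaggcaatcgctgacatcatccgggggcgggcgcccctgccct
HMGCS1, chr5:43313438-43313577, minus strand: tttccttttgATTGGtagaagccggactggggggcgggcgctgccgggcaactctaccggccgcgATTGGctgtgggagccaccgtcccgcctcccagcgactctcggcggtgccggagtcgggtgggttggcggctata
LSS, chr21:46228795-46228934, minus strand: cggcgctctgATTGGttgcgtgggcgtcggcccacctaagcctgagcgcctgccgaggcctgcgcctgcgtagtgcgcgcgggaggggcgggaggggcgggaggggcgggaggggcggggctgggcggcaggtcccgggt
SREBF2, chr22:41832962-41833101, plus strand: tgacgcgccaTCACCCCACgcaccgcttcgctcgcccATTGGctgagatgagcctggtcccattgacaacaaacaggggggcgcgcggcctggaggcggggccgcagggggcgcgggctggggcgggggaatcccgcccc
In the 250 bases before the start, CCAAT was found on either strand in 14 of the 16 tested members with a promoter in the table (87.5%), against 4041 of the 9646 tested genes that have one (41.9%) and 32% of 35116 promoters. TCACNCCAC, also searched on both strands, was found in 1 of the 16 (6.25%), in 115 of the 9646 tested genes (1.19%) and in 0.883% of all promoters. These are matches of letters and do not show that a factor was bound.

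Of 23 genes in the group, 18 were tested, and all 18 had positive differences. By limma 16 of them were higher in the shRNA arrays (88.9%, against 10% of all genes) and 0 were lower, also at an unadjusted p under 0.05, where 18 were higher. The median difference of the 18 was 0.60 log2 units, and that of all genes tested 0.03. In all 18 the 3 shRNA arrays lay above the 3 control arrays, while 35.6% of all genes had no overlap in either direction.

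At the head of the mevalonate pathway, HMGCS1, which makes HMG-CoA, read 11.27, 11.13 and 11.40 in control and 12.10, 12.10 and 12.30 in the shRNA arrays, 1.87-fold higher (log2 0.90 ± 0.12, limma adjusted p = 0.000245). Of the middle steps, IDI1 (isopentenyl diphosphate isomerase) was higher by 0.66, FDPS (farnesyl diphosphate synthase) by 0.56, MVD (mevalonate diphosphate decarboxylase) by 0.67 and MVK (mevalonate kinase) by 0.46. LSS, which closes the sterol ring, read 10.18, 10.31 and 10.24 in control and 11.07, 11.38 and 10.83 in the shRNA arrays, 1.80-fold higher. DHCR7, the last enzyme before cholesterol, read 9.73, 9.77 and 9.74 in control and 10.54, 10.63 and 10.33 in the shRNA arrays, 1.69-fold higher (log2 0.76 ± 0.08, limma adjusted p = 3.64e-05).

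On the fatty acid side, SCD, which introduces the double bond into stearate, read 11.89, 11.87 and 11.94 in control and 12.70, 12.88 and 12.69 in the shRNA arrays, 1.81-fold higher (log2 0.85 ± 0.07, limma adjusted p = 1.73e-06). FASN, the fatty acid synthase, was 1.5-fold higher and ACACA, the acetyl-CoA carboxylase that supplies it, was higher by 0.74 log2 units. Of the regulators, SREBF1 was higher by 0.86, SREBF2 by 0.60 and INSIG1, which holds SREBF proteins in the endoplasmic reticulum, by 0.56. The members without a call were ACLY, at 0.15, and SC5D, at 0.28.

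In the scramble arrays many of these genes lay on the other side of control. SCD read 10.74, 10.80 and 10.94 there, lower than control by a log2 difference of -1.07, HMGCS1 was lower at -0.71, SQLE at -0.86 and INSIG1 at -0.68. FASN, SREBF2, MVK and MVD differed from control by between -0.01 and 0.04 in scramble, without a call. In the 18-array fit 8 of the 16 calls were left, and SCD was not among them (adjusted p = 0.246). Leaving out any 1 control or shRNA array left 14 to 16. Over the group, the shRNA arrays were therefore above both other groups in SCD, HMGCS1, LSS, DHCR7 and SQLE, with no overlap of arrays.

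**Figure D3:**
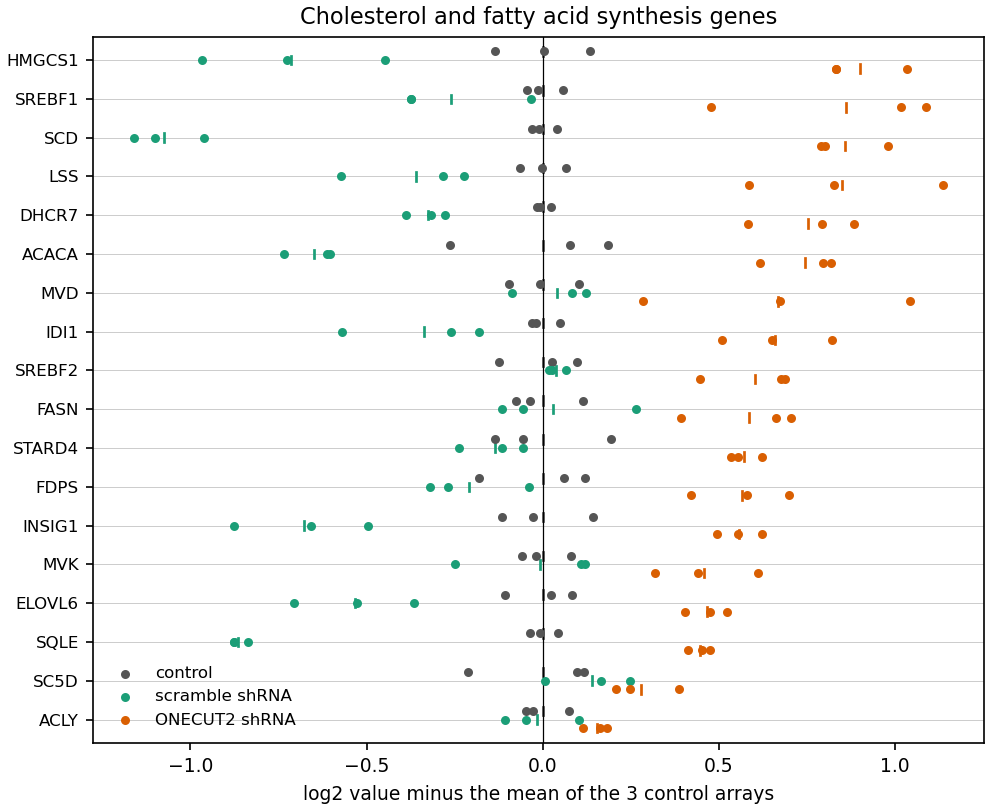
Log2 level of the 18 tested cholesterol and fatty acid synthesis genes minus the mean of the 3 control arrays, 1 point per array, with a bar at each group mean. All ONECUT2 shRNA points lie to the right of the control points of the same gene, and the scramble points of SCD, SQLE, HMGCS1 and INSIG1 lie to the left.

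Targets of p53 were mostly lower in the shRNA arrays. p53 is a stress-activated transcription factor that raises genes of cell cycle arrest, DNA repair, cell death and its own restraint. Of 17 tested targets, 10 were lower and 1 was higher (64.7% called, against 18.1% of all genes), with a median difference of -0.50. In the 18-array fit 6 were called, all lower, and without any 1 control or shRNA array 9 to 11 were called.

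CDKN1A, the cyclin-dependent kinase inhibitor of the p53 arrest, read 5.83, 6.03 and 5.99 in control and 4.96, 4.83 and 4.53 in the shRNA arrays, 2.26-fold lower (log2 -1.18 ± 0.11, limma adjusted p = 9.17e-06). The scramble arrays read 6.21, 6.31 and 6.25. FAS, the death receptor, read 7.09, 6.87 and 7.08 in control and 6.22, 6.15 and 6.38 in the shRNA arrays, 1.70-fold lower. SESN2, a stress-induced inhibitor of mTORC1 signalling, fell from 5.88, 5.73 and 5.94 to 5.07, 5.09 and 4.79, 1.82-fold lower. Its other probe set, 223195_s_at, differed by -0.14 without a call. DDB2, a sensor of UV damage, differed by -0.77, and GADD45A and SESN1, both induced by DNA damage, by -0.51 and -0.52. In these 6 genes all shRNA arrays lay under all control arrays. Over the list, 12 of the 17 had no overlap in either direction, against 35.6% of all genes.

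ZMAT3, an RNA-binding p53 target, had the largest difference of the group, but its values spread widely. It read 7.97, 8.86 and 8.67 in control and 7.02, 6.06 and 6.37 in the shRNA arrays, a 4.04-fold difference on the probe set with the highest mean, and -1.01, -0.23 and -0.33 in log2 units on the others. GDF15, a secreted stress cytokine, was the exception in direction, 1.63-fold higher in the shRNA arrays and also higher in scramble, by 0.74. MDM2, the ubiquitin ligase that degrades p53, overlapped between the groups, with a difference of -0.14 (limma adjusted p = 0.547). In the BCL2 family, which governs mitochondrial cell death and holds BAX, limma called 0 of the 12 tested members, against 18.1% of all genes. Of the 12, 4 had an unadjusted p under 0.05, 3 higher and 1 lower.

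**Figure D4:**
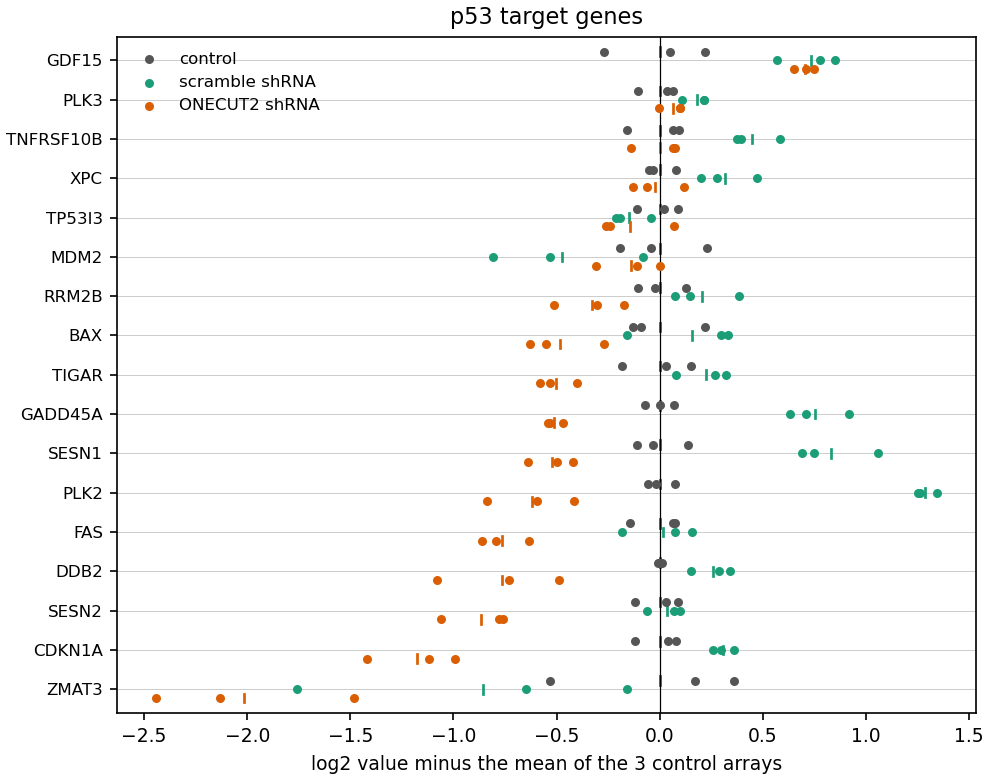
Log2 level of the 17 tested p53 target genes minus the mean of the 3 control arrays, 1 point per array, with a bar at each group mean. Most ONECUT2 shRNA points lie to the left of control, GDF15 lies to the right, and the scramble points of PLK2, SESN1 and GADD45A lie to the right.

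Androgen receptor targets were read because the receptor is the main driver of luminal prostate cells. Of 20 tested targets, limma called 9 lower (45%, against 8.09% of all genes) and 0 higher, and at an unadjusted p under 0.05 there were 12 lower and 0 higher. The median difference was -0.35. The calls fell to 3 in the 18-array fit and numbered 7 to 11 without any 1 control or shRNA array. In scramble 5 of the 20 were higher and 9 lower than control, against 24.8% and 16.7% of all genes, with a median of -0.27. Between shRNA and scramble arrays 5 were higher and 9 lower, against 21.6% and 26.7% of all genes, with a median of -0.14.

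KLK3, which encodes prostate-specific antigen, read 7.12, 7.54 and 7.53 in control and 5.60, 5.86 and 5.76 in the shRNA arrays, 3.15-fold lower (log2 -1.66 ± 0.13, limma adjusted p = 1.73e-06). The scramble arrays read 10.15, 10.18 and 9.80, far above control, a difference of 2.64. Of the other KLK3 probe sets, 204583_x_at differed by -1.68 and 231629_x_at by -0.18 without a call. In the 18-array fit the adjusted p for KLK3 was 0.321. KLK3, KLK2 and KLK4 are close relatives, and probe sets may cross-hybridise between them. KLK2 was lower by a log2 difference of -0.40 and KLK4 of -0.51.

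Other lower members were SLC45A3 (prostein), at -0.95, ACP3 (prostatic acid phosphatase), at -0.73, ERRFI1, an inhibitor of EGF receptor signalling, at -0.67, and STK39, a kinase of ion transport, at -0.57. MAF, a basic leucine zipper factor, went from 5.32, 4.55 and 5.16 to 3.78, 3.28 and 3.20, at least 2.02-fold lower. SLC45A3 was as low in scramble (-1.0) and MAF was lower there too (-0.88), whereas ERRFI1 and STK39 were near control (0.01 and 0.04). FKBP5, a co-chaperone of the receptor, differed by -0.11 without a call. FOXA1, the pioneer factor of the receptor, differed by -0.21 on its highest probe set (limma adjusted p = 0.148) and by -1.44 on 237086_at (limma adjusted p = 9.5e-05 over probe sets), so its direction was the same on both and its call was not.

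Histone genes were picked out after their values were seen, by gene symbol. Of 23 tested, limma called 6 lower and 0 higher in the shRNA arrays, against 8.09% and 10% of all genes, with a median of -0.20, and at an unadjusted p under 0.05 there were 8 lower and 3 higher. In scramble 18 were higher and 0 lower by limma, at an unadjusted p under 0.05 as well, and the median was 0.91, where 24.8% of all genes were higher and 16.7% lower. H2AC6 read 6.74, 6.71 and 6.69 in control, 4.53, 4.39 and 4.23 in the shRNA arrays and 9.79, 9.59 and 9.83 in scramble, so each group stood apart. It was 5.02-fold lower than control in the shRNA arrays. H2BC21 read 7.39, 7.53 and 7.33 in control and 5.82, 5.84 and 5.49 in the shRNA arrays, 3.25-fold lower, with scramble at 10.27, 9.95 and 9.61. H3C6 fell from 4.38, 4.33 and 4.52 to 2.86, 2.58 and 2.71, at least 1.33-fold lower. Many histone genes of the same family are near-identical in sequence, and probe sets can share signal between them. Reverse transcription in this assay starts from poly(A), which most replication-type histone messages lack.

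Markers of neuroendocrine prostate cancer gave a small and unstable shift. Of 14 tested, 6 were higher and 1 was lower, against 10% and 8.09% of all genes, with a median of 0.25. None of these 7 calls was left in the 18-array fit or without shRNA replicate 2, and 1 was left without control replicate 1. RET, a receptor counted among the 6, was under the detection limit in both groups. It read 2.94, 3.13 and 3.39 in control and 3.87, 3.58 and 3.55 in the shRNA arrays. It passed the level filter through the overexpression arrays, at 4.75, 4.61 and 5.09. The highest difference was in DLL3, a Notch ligand, at 0.68, with 4.69, 5.62 and 4.79 in control and 6.03, 5.67 and 5.42 in the shRNA arrays, which overlapped. CHGA, chromogranin A, read 4.88, 5.14 and 5.05 in control, 5.78, 5.80 and 5.52 in the shRNA arrays and 4.05, 4.04 and 3.84 in scramble. Its difference from control was 0.67 ± 0.22 (limma adjusted p = 0.0469), and no setting that left out 1 array kept the call. CHGB, the related chromogranin B, was lower, at -0.78. PEG10, a retrotransposon-derived gene of neuroendocrine tumours, differed by 0.22.

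Neuronal and axon guidance genes went both ways, with 2 of 15 higher and 4 lower, where 10% of all genes were higher and 8.09% lower. NEFL, neurofilament light chain, was at least 1.34-fold higher, and L1CAM, a neural adhesion molecule, was higher by 0.52. The other NEFL probe set, 221916_at, differed by 0.17 without a call. MAP2, a dendritic microtubule protein, read 10.59, 10.51 and 10.67 in control and 9.90, 10.10 and 10.19 in the shRNA arrays, lower by a log2 difference of -0.53. SEMA3C, a secreted guidance cue, differed by -0.61, its receptor NRP1 by -0.76 and the ephrin ligand EFNB2 by -0.49. In the 18-array fit NEFL, MAP2, SEMA3C and EFNB2 lost their calls. Among genes of the HNF, gut and liver lineage, of which 8 were tested, SPINK1, a trypsin inhibitor, was higher by 0.45 and the mucin MUC13 by 0.60. They were the 2 members called (25%, against 18.1% of all genes). A further MUC13 probe set, 222712_s_at, differed by 0.05 without a call. HNF4G, a nuclear receptor of gut and of some prostate tumours, read 9.78, 9.38 and 9.67 in control and 9.34, 9.39 and 9.42 in the shRNA arrays, without a call (-0.22). In scramble it was lower at 7.33, 7.36 and 7.94.

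**Figure D5:**
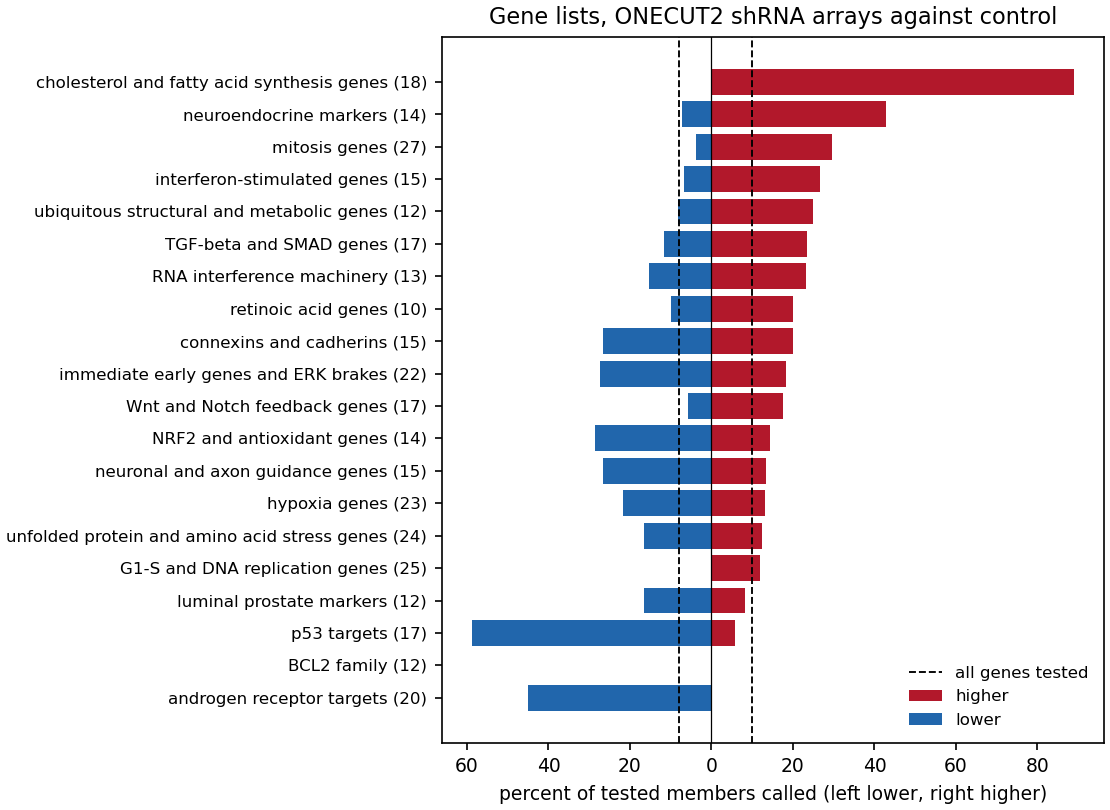
Percent of the tested members of each gene list called higher (bars to the right) or lower (bars to the left) when arrays labelled ONECUT2 shRNA are set against control, with the number tested beside each list of at least 10. Dashed lines mark the shares of all genes tested, 10% higher and 8.09% lower. The cholesterol and fatty acid synthesis bar reaches 88.9% on the right.

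Of 27 tested mitosis genes, 8 were higher and 1 was lower in the shRNA arrays, against 10% and 8.09% of all genes, with a median of 0.19. In scramble 11 were higher and 1 lower than control, against 24.8% and 16.7% of all genes, with a median of 0.19 too. Between shRNA and scramble arrays 5 were higher and 5 lower, against 21.6% and 26.7% of all genes, with a median of -0.03. CENPF, a kinetochore protein, read 11.13, 11.18 and 11.10 in control and 11.49, 11.85 and 11.82 in the shRNA arrays, 1.5-fold higher. Its other probe set, 209172_s_at, differed by 0.28 without a call. FOXM1, the transcription factor of the mitotic genes, read 9.40, 9.54 and 9.43 against 10.02, 10.06 and 9.93, 1.45-fold higher. MKI67, a proliferation marker, was higher by 0.31 and was higher in scramble too, by 0.39. The other MKI67 probe sets differed between shRNA and control arrays by 0.71 with a call and by 0.11 and -0.01 without. DLGAP5, a spindle protein, was the 1 lower member, at -0.55. The 9 calls fell to 1 in the 18-array fit, 2 without shRNA replicate 2 and 3 without control replicate 1. Of 25 genes of G1-S and DNA replication, 3 were higher and 0 lower by limma, near the 10% of all genes called higher, while at an unadjusted p under 0.05 there were 8 higher and 3 lower. E2F2, a cell cycle transcription factor, was 1.64-fold higher.

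Of the junction genes other than GJB2 and GJB6, the gap junction gene GJC1 was higher by 0.62, and the adhesion gene CDH6 rose from 8.34, 8.31 and 8.40 to 9.23, 9.49 and 9.43, 2.05-fold higher, with scramble lower at 6.18, 6.08 and 5.65. The other CDH6 probe sets differed from control by 0.41, 0.14, -0.14 and 0.15, none with a call. CDH2, N-cadherin, was higher by 0.64, and its call was lost without shRNA replicate 2 (0.45) or control replicate 1 (0.57). CDH1, E-cadherin, read 12.24, 12.35 and 12.26 against 12.35, 12.44 and 12.42, without a call (0.12). The list as a whole had 3 higher and 4 lower members of 15, against 10% and 8.09% of all genes. Of 6 tested genes of epithelial-mesenchymal transition, CDH2 was the 1 called (16.7%, against 18.1% of all genes).

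In the lists that follow members went both ways, and each count is to be read against the 10% of all genes that were higher and the 8.09% that were lower. Of the TGF-beta and SMAD genes, 4 of 17 were higher and 2 lower. BAMBI, a decoy receptor of TGF-beta, was 1.56-fold higher, and ID2, a target of BMP signals, was 1.77-fold lower, from 11.52, 11.54 and 11.73 to 11.10, 10.72 and 10.50. SMAD4, the shared SMAD, differed by -0.74 on 202527_s_at but by 0.17 and 0.29 on its other probe sets, so its direction rests on the probe set chosen, and it is 1 of the 2 counted as lower. Of the genes of immediate early response and ERK feedback, 4 of 22 were higher and 6 lower. ATF3, a stress-induced transcription factor, read 9.04, 9.19 and 9.47 in control and 8.05, 8.19 and 7.82 in the shRNA arrays, 2.31-fold lower. DUSP6, a phosphatase that restrains ERK, was 1.75-fold lower and was lower still in scramble, at -1.65. ETV1, an ETS factor, was 2.52-fold lower. In scramble, ATF3 and ETV1 were lower than control too, at -0.62 and -0.74.

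Among antioxidant genes of the NRF2 response, 2 of 14 were higher and 4 lower. AKR1C3, an aldo-keto reductase that makes active androgen, read 8.51, 8.39 and 8.34 in control and 7.17, 7.00 and 6.83 in the shRNA arrays, 2.67-fold lower, with scramble as low at 7.18, 6.77 and 7.17. AKR1C2, an enzyme of the same family that inactivates androgen, was 1.57-fold higher. The 2 share long stretches of sequence, so their probe sets may cross-hybridise. GCLM, the modifier subunit of glutathione synthesis, was 1.67-fold lower. Of 24 genes of unfolded protein and amino acid stress, 3 were higher and 4 lower, and asparagine synthetase (ASNS) and TRIB3 overlapped control. Of 23 hypoxia genes, 3 were higher and 5 lower, among them the histone demethylase KDM3A, at -0.64, and ADM, the vasodilator peptide adrenomedullin, at -0.72.

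Wnt and Notch feedback genes included LGR5, the R-spondin receptor of stem cells, which read 11.05, 10.67 and 11.19 in control, 11.51, 11.72 and 11.82 in the shRNA arrays and 7.67, 7.53 and 7.73 in scramble. It was 1.64-fold higher than control and the scramble arrays were far below both. DKK1, a secreted Wnt inhibitor, was 1.57-fold lower. Over the list, 3 of 17 were higher and 1 lower. Of 10 retinoic acid genes, 2 were higher and 1 lower. ALDH1A1, which makes retinoic acid, was 1.82-fold higher, from 10.56, 10.76 and 10.65 to 11.50, 11.59 and 11.47. It was lower in scramble, at -1.45. RARB was the lower member, at -0.45. CYP26B1, the other higher member, was under the detection limit on all control and shRNA arrays. It passed the level filter through the overexpression arrays, at 8.46, 8.31 and 8.4. Of 15 interferon-stimulated genes, which sense or answer viral and double-stranded RNA, 4 were higher and 1 lower, against 10% and 8.09% of all genes, and 0 of these 5 calls were left in the 18-array fit. IFIH1, a sensor of double-stranded RNA, was higher by 0.66 and IFITM3, a membrane restriction factor, by 0.46, and both were lower than control in scramble (-1.59 and -0.51).

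Of 13 genes of the RNA interference machinery, 3 were higher and 2 lower, where 10% and 8.09% of all genes were. AGO3, an Argonaute protein, read 6.09, 6.54 and 6.49 in control and 6.93, 7.27 and 7.27 in the shRNA arrays, 1.72-fold higher, and was higher in scramble by 0.88. Its other probe sets differed between shRNA and control arrays by -0.47 and 0.84, both called, and by 0.40 without a call. XPO5, which exports hairpin precursors from the nucleus, was higher by 0.45. TNRC6B, the scaffold of silencing, was higher by 0.73 on 1558142_at, while its other 5 probe sets gave -0.23 to 0.27 with no call. Of the ubiquitous genes often used as references, 3 of 12 were higher and 1 lower, against 10% and 8.09% of all genes. No tested member differed by more than 0.26 in either direction.

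Of 15 luminal prostate markers 12 passed the level filter. Of these, KRT8, a simple epithelial keratin, was higher by 0.61, and SPDEF, an ETS factor of luminal cells, and the claudin CLDN4 were lower, at -0.79 and -0.69. No other member was called, which makes 25% called, against 18.1% of all genes. Of 8 basal markers only CD44 passed the level filter, and it differed by -0.18 without a call. Of 12 leukocyte and endothelial markers 0 passed it. Of 11 stromal markers 4 passed, and LUM, the proteoglycan lumican, read 5.64, 5.58 and 5.74 in control, 4.15, 4.12 and 3.84 in the shRNA arrays and 7.59, 7.15 and 7.36 in scramble. ACTA2, smooth muscle actin, was at least 1.07-fold lower, its shRNA arrays all being under the detection limit. The part of cell makeup in any of the results was not tested.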

How the data were processed

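RNA was hybridised to 18 arrays (6 groups of 3) of the Affymetrix U133 Plus 2.0 type after 3′ IVT labelling, per the labels' protocols. The deposited log2 values were made by the authors with GCRMA, per the submitters' processing notes. The GCRMA version is not stated there, nor is whether the arrays were normalised in 1 run. Of 54675 probe sets, 41091 had 1 gene symbol, 1801 several and 11721 none. Each gene was represented by 1 probe set, that of highest average level on the 12 22Rv1 arrays among those with 1 symbol. Genes above 4 on at least 3 of those arrays were fitted with limma 3.58.1 (R 4.3.3, 4 groups, 8 residual degrees of freedom, trend and robust options), with Benjamini-Hochberg adjustment over 11705 genes, called under 0.05. On simulated data the fit called 66 of 66 genes changed by 2, 65 of 67 by 1 and 43 of 67 by 0.5 log2 units. Where a group lay wholly under 4, the fold is a bound against 4. Genes named were ONECUT2, the 12 largest rises and falls without array overlap (uncharacterised, antisense and FAM symbols left out), the 8 largest each way against both control and scramble, up to 4 called members per list, and FOXA1, KLK3, PEG10, CHGA, HNF4G, MKI67 and CDKN1A. Further list members, and MDM2, FKBP5, CDH1, ASNS and TRIB3, were picked from the 26 fixed lists after their values were seen. Members and lists were chosen with earlier results of these data known. Same-numbered shRNA and control arrays did not deviate together (r = -0.11, 0.123 and 0.098), so numbers were not taken as pairs. Alternatives were the 18 arrays, the 6 arrays, a replicate block, filters, centring, quantile normalization, other probe-set rules, no trend, and each array left out. No file gives counts, and the 3 arrays per group limit the precision.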

Additional observations from a re-analysis of the deposited data

How the results depend on the processing

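The call of 2122 genes between shRNA and control arrays was within 1.5 times under the 6 arrays alone (1995), no filter (1957), a filter at 6 (1789), quantile normalization (2192), centring (2144), the largest-variance probe set (2211), the mean of probe sets (1857) and no trend (1977). It was 542 with all 18 arrays, and 1195 to 2076 when 1 array was left out. The shRNA against scramble count was 3593 and the scramble against control count 2699 with all 18 arrays. ONECUT2 probe set 239911_at ranged from 0.52 to 0.85 when 1 array was left out and stayed positive. Centring, the largest-variance probe set and the mean of probe sets gave 44.5%, 46.6% and 43.9% of shRNA against control calls higher, against 55.4%, so that split depends on scale and probe set choice. SMAD4 turned to 0.05 with the mean of probe sets, and YWHAZ, a reference gene at 0.14, to -0.10 with the largest-variance probe set and to -0.05 with the mean. The replicate block gave 2265 calls, but no label says that an array number marks a shared culture or day. The causes of these changes were not tested. Levels under 4 limit folds to bounds.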

Other observations

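Calls between shRNA and control arrays were not spread evenly over chromosomes. On chromosome 8, 16.4% of 433 tested genes were higher and 7.39% lower, and on chromosomes 7 and 20 15.2% each were higher. On chromosome 13, which holds GJB2 and GJB6, 8.02% of 212 genes were higher and 13.7% lower, and on chromosome 4 7.14% of 434 were higher and 13.4% lower. Over all genes 10% were higher and 8.09% lower. The median differences on chromosomes 8 and 13 were 0.08 and -0.06 log2 units, and in scramble 0.02 and 0.00. No test was run on these shares.

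The following genes lay outside the naming rule and were chosen after their values were seen. FAM111B, a protease gene linked to DNA replication, read 6.83, 7.4 and 7.42 in control, 4.57, 3.85 and 4.42 in the shRNA arrays and 2.75, 2.93 and 2.63 in scramble. The antisense transcript TMEM132D-AS1 read 8.52, 8.37 and 8.56 in control, 5.73, 5.95 and 5.58 in the shRNA arrays and 7.24, 6.87 and 7.48 in scramble. TXNIP, a thioredoxin-binding regulator of glucose uptake, read 11.83, 11.96 and 11.90 in control, 10.60, 10.65 and 10.48 in the shRNA arrays and 11.62, 11.61 and 11.48 in scramble. GRM3, a metabotropic glutamate receptor, read 4.68, 4.61 and 4.35 in control, 5.59, 5.73 and 6.31 in the shRNA arrays and 8.78, 8.95 and 8.5 in scramble. FAM111B, TMEM132D-AS1 and TXNIP were lower than control in both lines, by limma differences of -2.94, -2.73 and -1.32 in the shRNA arrays, and GRM3 was higher in both, by 1.33 in the shRNA arrays.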
